A study of Mus musculus with 24 samples.

Results

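The clustered protocadherins are cell adhesion proteins of neurons, encoded by the Pcdha (alpha), Pcdhb (beta) and Pcdhg (gamma) gene clusters, which lie next to each other on mouse chromosome 18. All genes of the count table with a symbol that starts with Pcdha, Pcdhb or Pcdhg and a mean count of at least 10 over the 23 distinct libraries were taken as members. The table held 24411 genes. Of 59 such symbols, 54 met the minimum, namely 11 of 15 in the alpha cluster, 21 of 22 in the beta cluster and 22 of 22 in the gamma cluster, and all 54 were tested in every comparison.

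RNA-seq was performed on the hippocampus of 6 groups of male and female mice, whose strain label is C57/B6. The aging cohort held wildtype young control mice (9 months), wildtype old control mice (20 months) and wildtype old mice given Nanoligomer (Old-Nano, 20 months). The tauopathy cohort held littermate (LM) controls, rTg4510 mice and Nanoligomer-treated rTg4510 mice (rTg4510-Nano), all at 3 months. rTg4510 mice express human tau with the P301L mutation in the forebrain, so the hippocampus is one of several regions that carry the transgene. The Nanoligomers, antisense peptide nucleic acids on gold nanoparticles directed against NF-κB and NLRP3, were injected repeatedly over 1 month. The genotype tag of the LM samples reads rTg4510, and their titles and descriptions, which name littermates, were followed. Each group had 4 libraries, but the columns of rTg4510 M2 and M3 were identical and were counted as 1 library, so n = 3 in that group. Names such as F2 and M1 give the sex and number of the mouse. Each mouse gave 1 library, and p-values measure the spread between mice.

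Each variable exon of the clusters has its own promoter, and a neuron switches on only a few of them, so that neighbouring neurons carry different sets of these proteins on their surface. Alike sets on touching branches of a neuron bind each other and the branches move apart, a process known as self-avoidance. Choice among the promoters is known to depend on the insulator protein CTCF and on cohesin, which loops a promoter to a distant enhancer. In the alpha and gamma clusters the variable exon is spliced to constant exons shared by the cluster, whereas beta genes have a single coding exon and no shared part. The last genes of the alpha and gamma clusters (Pcdhac1, Pcdhac2, Pcdhgc3, Pcdhgc4 and Pcdhgc5) are called C-type. They are used more regularly across neurons than the other isoforms, and Pcdhgc4 is known to be needed for neuronal survival in mice.

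In GRCm38 the alpha cluster runs from 36930285 to 37188897 of chromosome 18, the beta cluster from 37264998 to 37521419 and the gamma cluster from 37661775 to 37841873. The 5 symbols under the minimum were Pcdha4, Pcdha6 and Pcdha7, with 0 counts in every library, Pcdha7-g, with a mean count of 0.739, and Pcdhb1, with a mean count of 9.83 (range 1 to 29). The member nearest to the minimum was Pcdha8, with a mean count of 18.1 (range 4 to 33). RefSeq lists read-through models that start at Pcdha4, Pcdha6 and Pcdha7 and run to the end of the gamma cluster, at 37841873, and these held 4, 19 and 17 counts summed over all libraries. A count of 0 for these alpha genes was therefore not read as absence of their RNA. The exons of 11 members overlap a gene on the other strand, and since the strand setting of the counting was not given, reads of both genes cannot be told apart there. These are Pcdha11, Pcdha12, Pcdhb12, Pcdhga1, Pcdhga7, Pcdhga8, Pcdhga10, Pcdhgb7, Pcdhga11, Pcdhga12 and Pcdhgc3. How reads from the shared constant exons, or from stretches that are alike between neighbouring genes, were assigned was not given either, so that values of single alpha and gamma members in particular carry this uncertainty.

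The total number of counts assigned to genes was 17214974 to 27424344 per library. All 22 markers of hippocampal neurons that were examined had counts in every library. In 3 libraries, markers of other brain regions were also high, on the log2 scale relative to the median library. In young M4, olfactory bulb markers were 5.93 higher and CA pyramidal cell markers stood at -2.22. In old M1, striatum and olfactory bulb markers were 3.96 and 3.85 higher, and in rTg4510-Nano M2, hypothalamus markers were 4.91 higher. Several results that rest on these libraries are given with and without them. CA pyramidal cell markers were also low in Old-Nano F1 (-1.95), old M1 (-1.86), rTg4510-Nano M2 (-1.45) and rTg4510 F1 (-1.41). Of these, Old-Nano F1 and rTg4510 F1 were kept where the 3 libraries with markers of other brain regions were left out. Markers of tissues outside the brain stood high in 5 libraries. Hepatocyte markers were 5.56 higher in young F4, 5.01 in old F3 and 4.73 in young M4, and LM M1 and rTg4510-Nano M3 exceeded the median by 3.45 and 4.88 for the pituitary list. Because tissue was measured in bulk, fewer cells of a type and less RNA per cell cannot be told apart.

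The C-type genes Pcdhgc3, Pcdhgc5 and Pcdhac2 were the most abundant members. Levels are given as CPM, the counts relative to a library size scaled by TMM, which corrects for composition between libraries. Over the 23 libraries, Pcdhgc3 had a mean of 104.9 CPM, Pcdhgc5 of 95.9 CPM and Pcdhac2 of 34.0 CPM, followed by the A-type gamma genes Pcdhga11 (26.9 CPM) and Pcdhga12 (18.9 CPM). The highest beta members were Pcdhb9 (16.8 CPM), Pcdhb17 (15.0 CPM) and Pcdhb7 (11.6 CPM), and the highest alpha members after Pcdhac2 were Pcdha12 (6.40 CPM) and Pcdha5 (4.001 CPM). Not every C-type gene was high, as Pcdhac1 had a mean of 2.36 CPM and Pcdhgc4 of 11.1 CPM. The lowest members were Pcdha8 (0.770 CPM), Pcdha1 (1.53 CPM) and Pcdha2 (2.23 CPM) in the alpha cluster and Pcdhb21 (2.10 CPM), Pcdhb15 (3.81 CPM) and Pcdhb4 (4.13 CPM) in the beta cluster. In the gamma cluster the lowest were Pcdhgb8 (4.58 CPM), which is annotated as a transcribed pseudogene, Pcdhgb4 (6.06 CPM) and Pcdhga1 (6.06 CPM). At this depth a member such as Pcdha8 rested on few reads in each library, and its differences carried large errors.

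**Figure D1:**
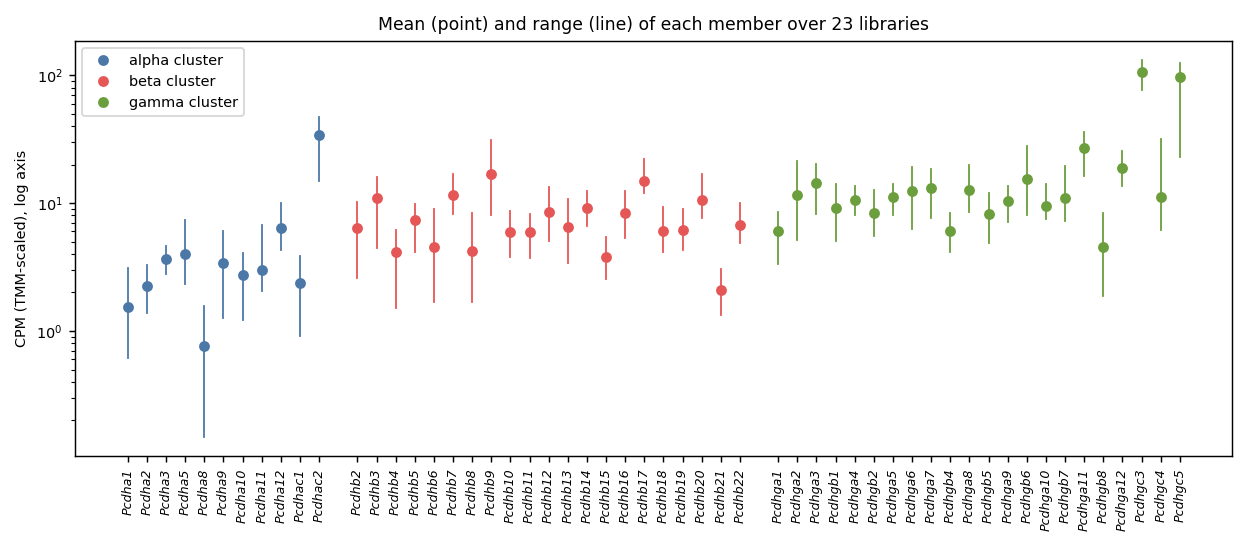
Mean level of each of the 54 members over 23 libraries (points) with the range over libraries (lines), in CPM on a log axis, with genes in the order of their start sites. The C-type genes Pcdhgc3 and Pcdhgc5 stand highest, at means of 104.9 and 95.9 CPM, and Pcdha8 lowest, at 0.770 CPM.

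Levels of different genes were compared per kilobase of exonic sequence that no other annotated gene shares, which could be had for 53 members (Pcdhga10 has no such base). On this scale the median over members was 1.36 CPM per kb in the alpha, 1.61 in the beta and 4.58 in the gamma cluster. The highest levels per kb were those of Pcdhgc3 (57.6 CPM per kb), Pcdhga11 (21.4), Pcdhgc5 (20.8), Pcdhac2 (11.2) and Pcdhb12 (7.76). Pcdhgc3, Pcdhga11 and Pcdhb12 are among the members whose exons overlap a gene on the other strand, and their own exonic stretch is short as a result. None of the genes on the other strand was in the count table. Reads from the bases left out may thus have been counted to these members, which would raise their level per kb. When all exonic bases were used, Pcdhgc3, Pcdhgc5 and Pcdhac2 led with 19.1, 12.6 and 5.78 CPM per kb. Pcdhgc3 thus led on both lengths and Pcdhgc5 and Pcdhac2 stayed among the highest, whereas the place of Pcdhga11 and Pcdhb12 depended on the length used. The other C-type genes, Pcdhac1 and Pcdhgc4, were lower, at 0.923 and 3.18 CPM per kb of their own exonic sequence.

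Shares within a cluster were uneven. Pcdhac2 made up 52.5% of the alpha cluster on average, from 31.9% in young M4 to 62.0% in rTg4510-Nano F1. In the gamma cluster, Pcdhgc3 made up 24.3% (19.3% to 30.0%) and Pcdhgc5 22.0%, from 6.74% in rTg4510-Nano M2 to 27.6% in young F4. The beta cluster had no such dominant gene, with Pcdhb9 at 10.1% (5.53% to 16.4%) and Pcdhb17 at 9.39%. Both extremes that were low, for Pcdhac2 and for Pcdhgc5, were libraries with markers of other brain regions.

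To ask whether output from a cluster as a whole differed between groups, the CPM of its members were summed. The beta cluster summed to 151.2 ± 33.9 CPM (SD, n = 4) in young, 185 ± 3.09 in old and 187 ± 8.74 in Old-Nano mice. Young F2, F4, M1 and M4 were at 128.8, 156.9, 122.2 and 196.7 CPM, and the libraries of both old groups at 177.9 to 198.7 CPM. The range of the young libraries thus overlapped both old groups through M4, the library with olfactory bulb markers, and the other 3 young libraries were below all old ones. In the tauopathy cohort the beta sum was 154 ± 22.0 CPM in LM (n = 4), 145 ± 10.5 in rTg4510 (n = 3) and 138 ± 8.47 in rTg4510-Nano mice (n = 4), and the ranges of the LM libraries and of both other groups overlapped. The alpha cluster summed to 65.3 ± 12.9 CPM in young, 55.9 ± 9.83 in old, 67.8 ± 10.4 in Old-Nano, 63.0 ± 2.40 in LM, 68.9 ± 15.8 in rTg4510 and 65.2 ± 10.7 in rTg4510-Nano mice. Gamma sums were 452 ± 16.0, 419 ± 17.5, 444 ± 12.9, 413 ± 30.9, 459 ± 16.9 and 412 ± 51.5 CPM in the same order of groups. No cluster sum was tested, because the members of the sum were chosen with earlier results known.

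Aging was examined first. Old mice had higher counts than young mice for genes at the start of the beta cluster, led by Pcdhb9 and Pcdhb2, while most gamma and alpha members differed little. With edgeR's quasi-likelihood test and Benjamini-Hochberg adjustment over all genes, none of the 54 members passed the threshold of 0.05 between old and young mice, where 0.013% of all 15335 genes did. At an unadjusted p under 0.05, 10 members were higher and 4 lower in old mice, beside 6.27% and 3.99% of all genes, and of the 10 higher members 7 were beta genes. In 7 members all old libraries lay above all young libraries, where 4.51% of all genes did, and in 1 member (Pcdhb22) all lay below, where 3.08% did. The median log2 fold change was 0.21 over the beta, -0.05 over the alpha and -0.10 over the gamma members, against -0.02 over all genes tested. DESeq2, an alternative count test, called Pcdhb2, Pcdhb3, Pcdhb4, Pcdhb9 and Pcdhga6 higher in old mice and no member lower, where it called 1.17% of all genes higher and 0.365% lower.

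Pcdhb9 lies at 37400855 to 37403909. It was at 13.7 CPM in young F2, 15.4 in F4, 13.2 in M1 and 17.95 in M4, against 24.2 in old F2, 30.2 in F3, 22.3 in M1 and 28.0 in M3. In Old-Nano mice it was at 30.9 CPM in F1, 29.8 in F2, 25.8 in M2 and 27.6 in M5. Every library of both old groups was above every young library. The log2 fold change was 0.79 (SE 0.14, 1.73-fold, adjusted p = 0.299 by edgeR) in old and 0.92 (SE 0.12, 1.89-fold, adjusted p = 0.254) in Old-Nano relative to young mice, comparisons that share the young libraries. When both old groups were set against young mice in one fit, Pcdhb9 was higher by 0.84 (SE 0.11, 1.80-fold, adjusted p = 0.0307 by edgeR), the only member called of 54, where 0.0456% of all genes were called higher. Without the libraries with markers of other brain regions the difference was 0.98 (SE 0.10, adjusted p = 0.0115). The call was lost when any one of old F3, old M3, Old-Nano F1, Old-Nano M5, young F2, young F4 or young M1 was left out, with adjusted p of up to 0.176 and a log2 fold change of 0.78 to 0.96 over all libraries left out in turn. Without the libraries with hepatocyte or pituitary markers, which leaves 2 young libraries, the difference was 0.99 (adjusted p = 0.0769 by edgeR) and no member was called, where 0.0131% of all genes were called higher.

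Markers of several cell types were summed in the same groups without a test, and the microglia and endothelial ranges of young and old mice overlapped. The 7 microglia markers, all with counts in each library, summed to 283.7 to 354.3 CPM in young, 236.8 to 511.2 CPM in old and 325.9 to 605.0 CPM in Old-Nano mice. The 6 markers of adult-born neurons summed to 48.4 to 62.6 CPM in young F2, F4 and M1. In the libraries of both old groups other than old M1 they summed to 27.8 to 39.2 CPM. Young M4 and old M1, the libraries with olfactory bulb markers, were at 488.9 and 92.3 CPM. Of these markers Eomes was at 0 in old F2, Old-Nano F1 and Old-Nano F2. Endothelial markers summed to 214.4 to 268.4 CPM in young, 224.8 to 346.6 CPM in old and 222.2 to 314.4 CPM in Old-Nano mice. Across all 23 libraries, which share depth and groups, Pcdhb9 had Pearson and Spearman correlations of 0.65 and 0.60 with endothelial markers and of -0.51 and -0.58 with markers of adult-born neurons. Its levels also separated the aging and tauopathy cohorts, as given below. Correlations of like size were found with pituitary (-0.62 and -0.64), oligodendrocyte precursor (-0.54 and -0.47) and choroid plexus markers (-0.48 and -0.54). The part of these cell types in the values of Pcdhb9 and the other members was not tested.

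**Figure D2:**
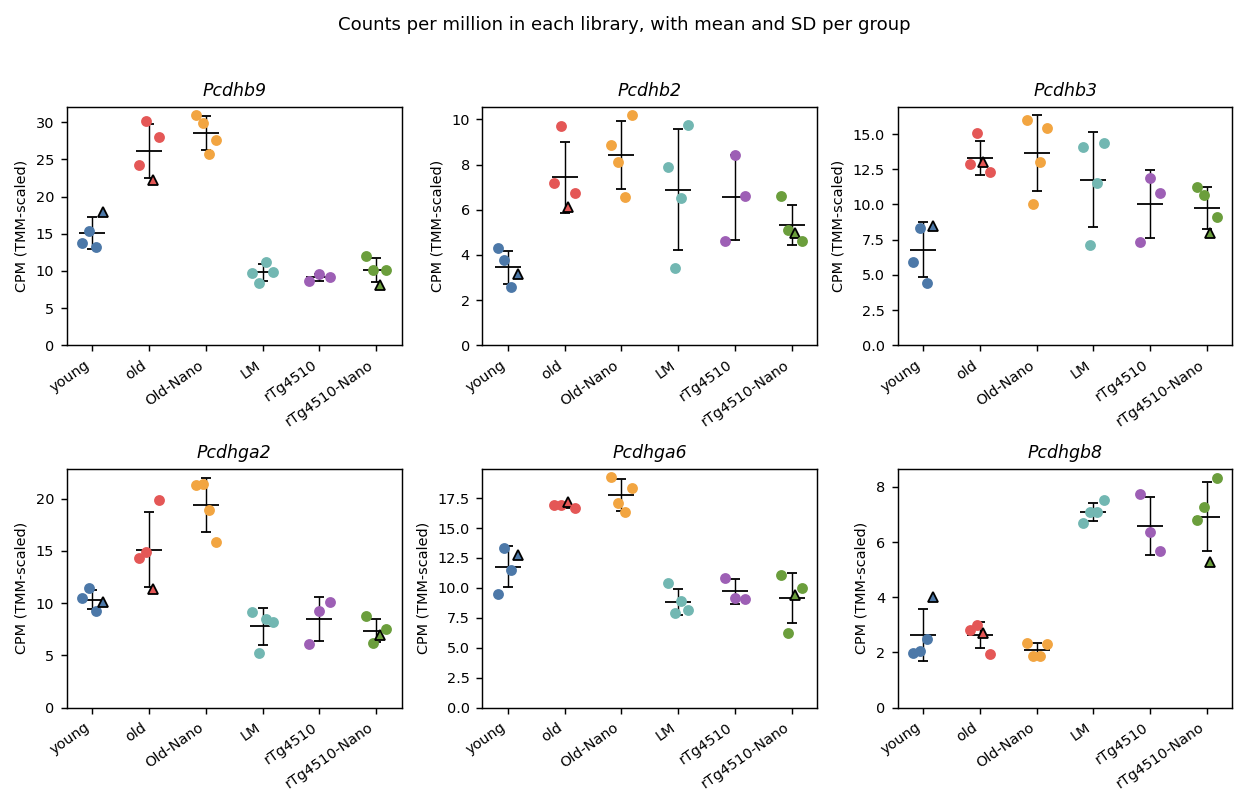
CPM (TMM-scaled) of Pcdhb9, Pcdhb2, Pcdhb3, Pcdhga2, Pcdhga6 and Pcdhgb8 in each library by group, with mean and SD; triangles are the libraries with markers of other brain regions. For Pcdhb9 all libraries of old and Old-Nano mice (22.3 to 30.9 CPM) lie above the young libraries (13.2 to 17.95 CPM), and for Pcdhgb8 the 3 groups of the tauopathy cohort lie above the 3 groups of the aging cohort.

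Further beta genes near the start of the cluster had the same direction. Pcdhb2 was at 4.29, 3.79, 2.60 and 3.15 CPM in young F2, F4, M1 and M4, and at 7.20, 9.69, 6.12 and 6.73 CPM in old F2, F3, M1 and M3. The highest young library was thus below the lowest old library, and the log2 fold change was 1.10 (SE 0.22, 2.14-fold, adjusted p = 0.302 by edgeR). In Old-Nano mice it was at 8.86, 8.10, 6.58 and 10.2 CPM in F1, F2, M2 and M5, a log2 fold change of 1.28 (SE 0.21, adjusted p = 0.352) relative to young mice, and with both old groups together it was 1.18 (SE 0.18, adjusted p = 0.0605).

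Pcdhb3 was at 5.93, 8.31, 4.44 and 8.45 CPM in young F2, F4, M1 and M4, and at 12.9, 15.1, 13.0 and 12.3 CPM in old F2, F3, M1 and M3. Its old libraries were all above the young ones, with a log2 fold change of 0.97 (SE 0.22, adjusted p = 0.323). Pcdhb4 differed by 0.61 (SE 0.16, adjusted p = 0.351), Pcdhb5 by 0.62 (SE 0.20, adjusted p = 0.385) and Pcdhb14 by 0.45 (SE 0.14, adjusted p = 0.376), each with no overlap between old and young libraries. In Old-Nano relative to young mice, Pcdhb14 differed by 0.57 (SE 0.12, adjusted p = 0.381) and Pcdhb13 by 0.47 (SE 0.15, adjusted p = 0.409), again without overlap.

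For Pcdhb6, the value rested on 1 library. It was at 1.93, 1.74 and 1.68 CPM in young F2, F4 and M1 but at 5.86 CPM in young M4, and at 5.45, 4.66, 8.97 and 5.94 CPM in old F2, F3, M1 and M3. Young M4 and old M1, the highest libraries of their groups, are the ones with olfactory bulb markers. With all libraries the log2 fold change of both old groups relative to young mice was 0.84 (SE 0.35, adjusted p = 0.275). Without the libraries with markers of other brain regions it was 1.39 (SE 0.16, adjusted p = 0.0260), and without young M4 alone 1.52 (SE 0.22, adjusted p = 0.0561). In the former fit Pcdhb6 and Pcdhb9 were the 2 members called, where 0.0327% of all genes were called higher. Pcdhb8 had the same high library, at 1.68, 2.57 and 1.76 CPM in young F2, F4 and M1 and 7.07 CPM in M4. Its log2 fold change between old and young mice was 0.68 (SE 0.51) with all libraries and 1.10 (SE 0.25, adjusted p = 0.196) without those libraries.

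Higher values in old mice were concentrated at 1 end of the beta cluster. Over the 21 beta members the log2 fold change between old and young mice went down along the cluster, with a Pearson correlation with the rank of position of -0.81 and a Spearman correlation of -0.78. The first 8 members, Pcdhb2 to Pcdhb9, had a median of 0.73 and 7 of 8 were positive, and the other 13, Pcdhb10 to Pcdhb22, had a median of 0.01 with 9 positive, a division chosen after the values were seen. For most members of both parts, young M4, the library with olfactory bulb markers, was the highest young library. Pcdhb8 was at 7.07 CPM there against 1.68 to 2.57 CPM in the other young libraries, and Pcdhb17 at 22.2 against 11.9 to 15.9 CPM. The values by position were not computed without young M4. In Old-Nano relative to young mice the correlations were -0.77 and -0.74. These correlations are across genes that share a locus and libraries, both comparisons share the young libraries, and no p was computed. At the far end, Pcdhb22 was at 7.21, 8.31, 6.96 and 10.1 CPM in young F2, F4, M1 and M4 and at 5.37, 5.89, 6.43 and 5.55 CPM in old F2, F3, M1 and M3. All old libraries of Pcdhb22 lay below the young ones, with a log2 fold change of -0.49 (SE 0.16, adjusted p = 0.386), and DESeq2 called it lower with both old groups together (adjusted p = 0.0294). In the alpha and gamma clusters the same correlations were weaker, at -0.22 and -0.38 over 11 alpha members and -0.27 and -0.20 over 22 gamma members. Between rTg4510 and LM mice they were 0.22 and 0.20 over the beta members, without the order seen with age.

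**Figure D3:**
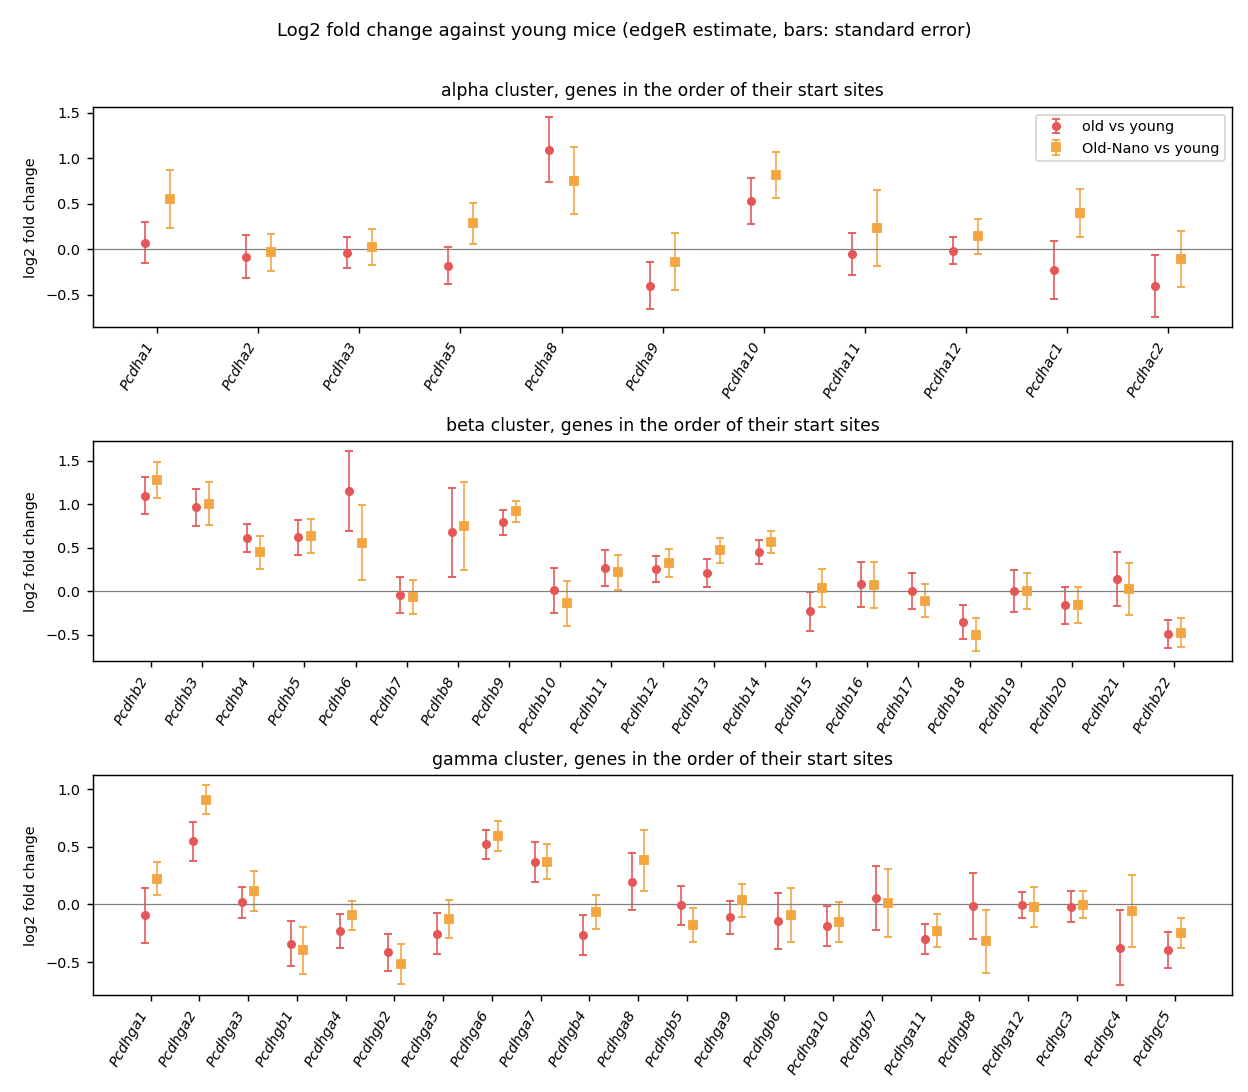
Log2 fold change of each member in old and in Old-Nano mice relative to young mice (edgeR estimate, bars show the standard error), with genes in the order of their start sites in each cluster. In the beta cluster the values are highest from Pcdhb2 to Pcdhb9 (median 0.73 in old mice). The other 13 members have a median of 0.01, and young M4 is included in both values.

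In the gamma cluster, the A-type genes Pcdhga6 and Pcdhga2 had the smallest p with age. Pcdhga6 was at 9.49, 13.3, 11.5 and 12.8 CPM in young F2, F4, M1 and M4, and at 16.9, 16.9, 17.2 and 16.6 CPM in old F2, F3, M1 and M3. The old libraries lay close together and above every young library, with a log2 fold change of 0.52 (SE 0.12, 1.44-fold, adjusted p = 0.331). Pcdhga2 was at 10.5, 11.5, 9.26 and 10.1 CPM in young F2, F4, M1 and M4, at 14.3, 14.9, 11.3 and 19.9 CPM in old F2, F3, M1 and M3, and at 21.3, 21.4, 18.9 and 15.9 CPM in Old-Nano F1, F2, M2 and M5. Old M1 overlapped the young libraries, and all Old-Nano libraries were above them. The log2 fold change of Pcdhga2 was 0.55 (SE 0.17, adjusted p = 0.381) in old and 0.91 (SE 0.12, 1.87-fold, adjusted p = 0.254) in Old-Nano relative to young mice, and 0.72 (SE 0.14, adjusted p = 0.129) with both old groups together. Pcdhgb2, which lies between them in the cluster, had the other direction. It was at 8.63, 12.1, 8.22 and 10.5 CPM in young and 8.43, 7.17, 6.60 and 7.48 CPM in old mice (F2, F3, M1, M3), a log2 fold change of -0.41 (SE 0.16, adjusted p = 0.450). Of the B-type gamma genes, 6 of 7 had a negative value in old relative to young mice, with a median of -0.14, and of the A-type genes 7 of 12, with a median of -0.05.

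Between Old-Nano and young mice, none of the 54 members passed edgeR's threshold, where 0.00651% of 15368 genes did. At an unadjusted p under 0.05, 11 members were higher and 3 lower, beside 5.95% and 4.61% of all genes, and 9 members lay wholly above and 3 wholly below the young libraries, beside 4.1% and 2.62%. Among these was Pcdha10, an alpha gene, which was at 2.23, 1.22, 1.55 and 2.18 CPM in young and 2.79, 3.01, 3.88 and 2.99 CPM in Old-Nano libraries (log2 fold change 0.82, SE 0.25, adjusted p = 0.409). DESeq2 called 6 members higher (Pcdhb2, Pcdhb3, Pcdhb9, Pcdhb14, Pcdhga2 and Pcdhga6) and none lower, where it called 1.07% of all genes higher and 0.638% lower. With both old groups together, 13 members were higher and 6 lower at an unadjusted p under 0.05, beside 7.98% and 8.33% of all genes, and 6 lay wholly above and 1 wholly below the young libraries, beside 2.16% and 1.07%. DESeq2 called 9 higher and 1 lower, beside 2.49% and 1.11% of all genes.

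The C-type genes did not follow the beta genes with age. Pcdhgc3 was at 97.7, 92.3, 106.7 and 106.7 CPM in young F2, F4, M1 and M4 and at 102.9, 119.0, 77.0 and 99.8 CPM in old F2, F3, M1 and M3, which overlap widely (log2 fold change -0.02, SE 0.13, adjusted p = 0.964). Pcdhgc5 was at 125.4, 122.4, 108.2 and 86.2 CPM in young and 89.5, 65.3, 89.8 and 91.5 CPM in old mice in the same order of libraries. Young M4 lay among the old libraries and the other young libraries lay above them, with a log2 fold change of -0.40 (SE 0.15, adjusted p = 0.451), and of -0.54 (SE 0.14, adjusted p = 0.223) without the libraries with markers of other brain regions. Pcdhac2 was at 45.8, 41.6, 37.8 and 14.9 CPM in young and 33.5, 18.9, 21.4 and 32.1 CPM in old mice. Young M4 was the lowest of all, and the log2 fold change was -0.40 (SE 0.35, adjusted p = 0.702) with it and -0.57 (SE 0.22, adjusted p = 0.313) without the libraries named. Pcdhac1 and Pcdhgc4 had log2 fold changes of -0.23 (SE 0.32, adjusted p = 0.824) and -0.38 (SE 0.32, adjusted p = 0.706).

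Pcdhgc4 and Pcdhgc5 stood opposite each other in single libraries. In rTg4510-Nano M2, Pcdhgc4 was at 31.7 CPM where the other rTg4510-Nano libraries were at 8.75 to 13.9 CPM, and Pcdhgc5 was at 23.05 CPM where they were at 96.9 to 113.6 CPM. The ratio of Pcdhgc5 to Pcdhgc4 was 0.727 in that library, 4.44 in young M4, and up to 18.1 (LM M2) elsewhere. rTg4510-Nano M2 is the library with hypothalamus markers, which summed to 278.8 CPM over 7 genes there and to 1.68 to 8.35 CPM in the other libraries, and young M4 is the library with olfactory bulb markers. Across the 23 libraries Pcdhgc5 had a Pearson correlation of -0.88 with hypothalamus markers but a Spearman correlation of 0.00, so the former rests on this library. Pcdhgc4 had correlations of -0.72 and -0.82 with markers of dentate granule cells, the neurons that fill the dentate gyrus. With CA pyramidal cell markers its correlations were -0.68 and -0.75. All points share library and depth, and the part of tissue makeup in the levels of these genes was not tested beyond leaving out the libraries.

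**Figure D4:**
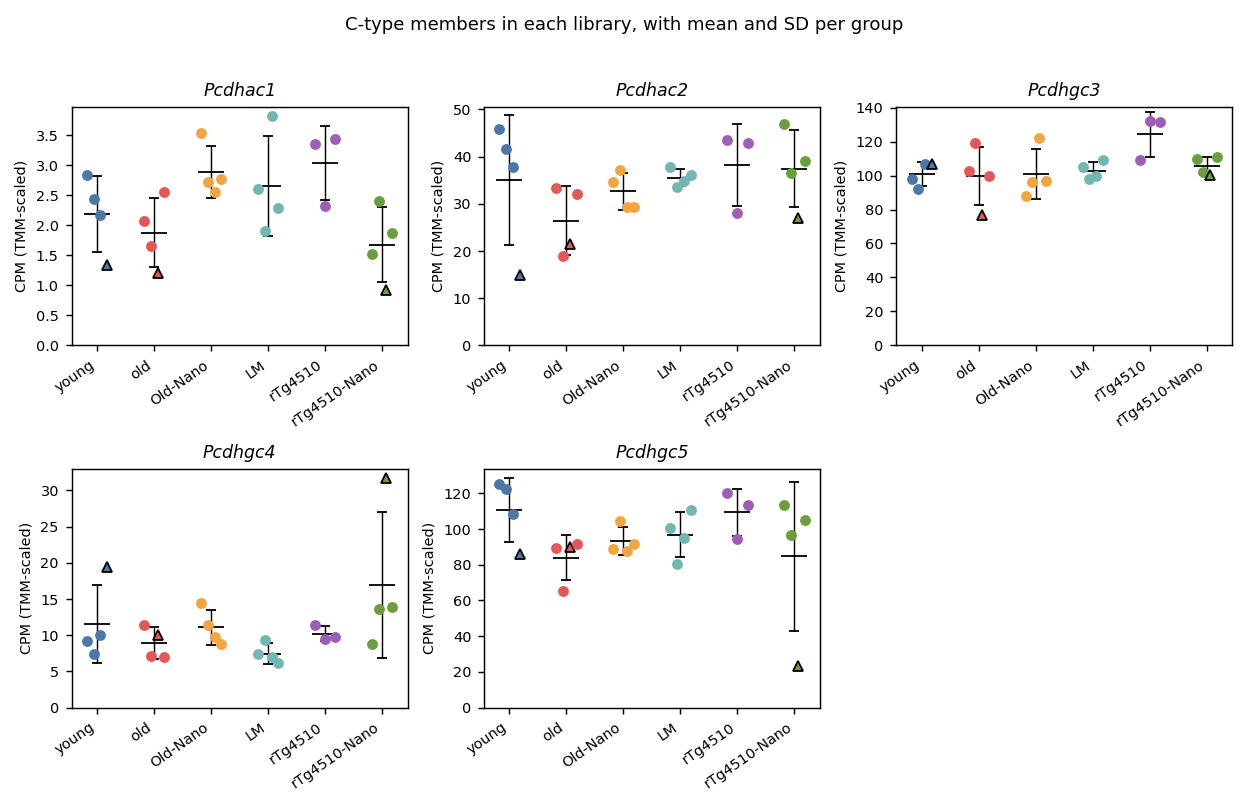
CPM (TMM-scaled) of the C-type genes Pcdhac1, Pcdhac2, Pcdhgc3, Pcdhgc4 and Pcdhgc5 in each library by group, with mean and SD; triangles are the libraries with markers of other brain regions. In rTg4510-Nano M2, Pcdhgc4 is highest (31.7 CPM) and Pcdhgc5 lowest (23.05 CPM), and in young M4 Pcdhac2 is lowest (14.9 CPM).

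Nanoligomer treatment of old mice was not accompanied by a called difference in any member. Between Old-Nano and old mice 0 of 54 members passed edgeR's threshold, where 0 of 15257 genes did (0%), and DESeq2 called 0 members and 0% of genes as well. At an unadjusted p under 0.05, 1 member was higher and 1 lower, beside 0.334% and 0.878% of all genes, and no member separated the groups, where 0.249% and 0.459% of genes did. Those members were Pcdhac1, at 2.07, 1.66, 1.21 and 2.56 CPM in old and 3.53, 2.73, 2.55 and 2.77 CPM in Old-Nano mice (log2 fold change 0.62, SE 0.26, adjusted p = 0.9998), and Pcdhb6 (-0.60, SE 0.23, adjusted p = 0.9998). Without old M1, a library with markers of other brain regions, the value of Pcdhb6 was -0.37. Only Old-Nano M2 of the Old-Nano libraries was below an old library for Pcdhac1. Next by p were Pcdhga2 (0.35), Pcdha5 (0.46) and Pcdhb13 (0.25), all with adjusted p = 0.9998. The value of Pcdha5 was 0.26 without Old-Nano F1, and that of Pcdhb13 was 0.17 without Old-Nano M5. Of the alpha members 10 of 11 had a positive value, with a median of 0.28 against 0.00 over all genes, and the medians over beta and gamma members were 0.00 and 0.07. Pcdhb9 and Pcdhb2, the beta genes with the smallest p in old relative to young mice, had levels in Old-Nano mice that overlapped those in old mice, as given above.

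In rTg4510 mice, genes of the gamma cluster gave the smallest p. None of the 54 members passed edgeR's threshold between rTg4510 and LM mice, where 0.811% of 15166 genes did. At an unadjusted p under 0.05, 4 members were higher and 0 lower, beside 8.71% and 5.02% of all genes, and the same 4 lay wholly above the LM libraries and 0 below, beside 8.06% and 5.35%. These shares of members were close to or below the background. Pcdhgb2, a B-type gamma gene at 37689859 to 37841872, was at 7.53, 7.14, 6.21 and 7.39 CPM in LM F2, F3, M1 and M2 and at 9.81, 9.77 and 10.5 CPM in rTg4510 F1, F3 and M2. The groups were apart by more than 2 CPM, with a log2 fold change of 0.51 (SE 0.13, 1.42-fold, adjusted p = 0.147 by edgeR), and DESeq2 called it as the only member (adjusted p = 0.0401), where it called 3.87% of all genes higher and 1.15% lower.

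Pcdhgc3 was at 105.1, 98.0, 99.6 and 108.9 CPM in LM F2, F3, M1 and M2 and at 109.1, 132.3 and 131.5 CPM in rTg4510 F1, F3 and M2. rTg4510 F1 was close to LM M2, and the log2 fold change was 0.28 (SE 0.09, adjusted p = 0.240). Pcdhgc4 was at 7.41, 9.40, 6.94 and 6.13 CPM in LM and at 11.4, 9.50 and 9.71 CPM in rTg4510 mice (0.45, SE 0.18, adjusted p = 0.309), and Pcdhga10 differed by 0.30 (SE 0.13, adjusted p = 0.345). Choroid plexus markers moved with this comparison. The 8 markers, all with counts in each of these libraries, summed to 545.6 to 2123.6 CPM in rTg4510 mice, 21.3 to 71.2 CPM in LM and 21.8 to 48.7 CPM in rTg4510-Nano mice. Dentate granule cell markers, with which Pcdhgc4 correlated as given above, summed to 341.6 to 601.5 CPM in LM and to 274.8 to 365.3 CPM in rTg4510 mice. CA pyramidal cell markers, which also correlated with it, summed to 576.0 to 833.5 CPM in LM and to 509.5 to 718.2 CPM in rTg4510 mice. The part of these cell types in the values of Pcdhgc3, Pcdhgc4 and the other members was not tested. Across all 23 libraries Pcdhgc3 had Pearson and Spearman correlations of 0.64 and 0.52 with choroid plexus markers and of 0.74 and 0.64 with astrocyte markers.

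Beta members tended to lie at or under the level of LM mice. Of 21, 14 were negative in rTg4510 relative to LM mice, with a median of -0.09 against 0.00 over all genes, of which Pcdhb11 had the smallest p (log2 fold change -0.39, adjusted p = 0.424). LM F3 was the lowest LM library for several of them, such as Pcdhb4, at 1.95 CPM where the other LM libraries were at 5.17 to 5.69 CPM. Pcdhb9 was at 9.75, 8.42, 11.3 and 9.92 CPM in LM and 8.66, 9.55 and 9.18 CPM in rTg4510 mice, which overlap.

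**Figure D5:**
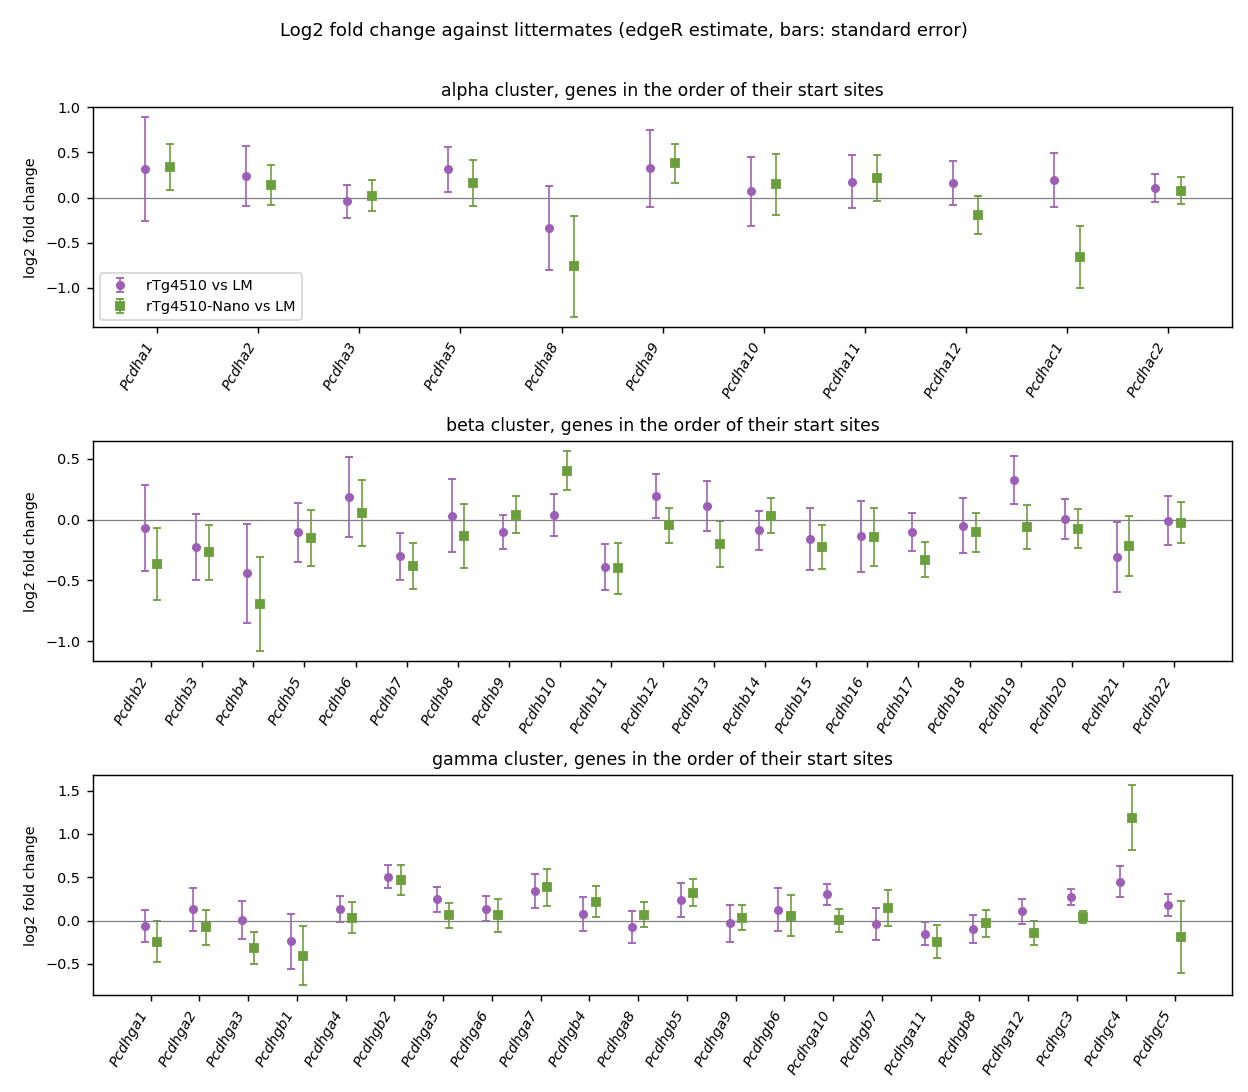
Log2 fold change of each member in rTg4510 and in rTg4510-Nano mice relative to LM controls (edgeR estimate, bars show the standard error), with genes in the order of their start sites in each cluster. Values scatter around 0 in each cluster, Pcdhgb2 is positive in both comparisons (0.51 and 0.47), and the value of Pcdhgc4 in rTg4510-Nano mice (1.18) rests partly on library M2.

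With treatment of rTg4510 mice, none of the 54 members passed edgeR's threshold, where 0.0521% of 15358 genes did, and DESeq2 called 0 members, beside 0.0651% of genes higher and 1.4% lower. The count at an unadjusted p under 0.05 was 0 members higher and 3 lower, beside 1.13% and 4.37% of all genes, and 1 member lay wholly above and 2 wholly below the untreated libraries, beside 2.51% and 4.48%. Pcdhac1 was at 3.36, 2.32 and 3.44 CPM in rTg4510 F1, F3 and M2 and at 1.52, 2.41, 0.920 and 1.87 CPM in rTg4510-Nano F1, F2, M2 and M3. rTg4510-Nano F2 overlapped the untreated libraries, with a log2 fold change of -0.86 (SE 0.35, adjusted p = 0.863). Pcdhgc3 was at 109.9, 101.8, 100.6 and 111.0 CPM in rTg4510-Nano mice, of which F1 and M3 were above rTg4510 F1, with a log2 fold change of -0.23 (SE 0.09, adjusted p = 0.869). Pcdhb19 (-0.38, adjusted p = 0.893), Pcdhb10 (0.37, adjusted p = 0.933) and Pcdhb17 (-0.22, adjusted p = 0.945) followed. For Pcdhgc4 and Pcdhgc5 the log2 fold changes were 0.75 (SE 0.43) and -0.38 (SE 0.46) with all libraries, and 0.26 (SE 0.21) and -0.04 (SE 0.12) without rTg4510-Nano M2.

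Between rTg4510-Nano and LM mice, 0 of 54 members passed edgeR's threshold, where 0.0263% of 15191 genes did, and DESeq2 called 0, beside 0.132% of genes higher and 0.23% lower. The count at an unadjusted p under 0.05 was 3 members higher and 1 lower, beside 4.08% and 3.96% of all genes, and 1 member lay wholly above and 1 wholly below the LM libraries, beside 2.38% and 2.57%. Pcdhgc4 had the smallest p, with a log2 fold change of 1.18 (SE 0.38, adjusted p = 0.611), and of 0.69 (SE 0.21, adjusted p = 0.568) without rTg4510-Nano M2. Dentate granule cell markers summed to 273.8 to 338.9 CPM and CA pyramidal cell markers to 289.1 to 569.7 CPM in rTg4510-Nano mice. For both lists each library was below every LM library, and their part in the value of Pcdhgc4 was not tested. Pcdhgb2 was at 12.5, 8.01, 8.10 and 10.4 CPM in rTg4510-Nano F1, F2, M2 and M3, each above the highest LM library, with a log2 fold change of 0.47 (SE 0.17, adjusted p = 0.611). Pcdhb10 differed by 0.40 (SE 0.16), Pcdhb17 by -0.33 (SE 0.14) and Pcdhgb5 by 0.32, all with adjusted p = 0.611. Without LM M2 the value of Pcdhb17 was -0.20. The direction of Pcdhgb2 was thus positive in both rTg4510 groups, which share the LM libraries, and 17 of 21 beta members were negative in rTg4510-Nano mice.

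Whether the difference with age differed from that with rTg4510 was tested in one fit. The difference for Pcdhb9 was 0.90 (SE 0.19, adjusted p = 0.0656 by edgeR) and for Pcdhgb2 -0.92 (SE 0.20, adjusted p = 0.0741), and 0 of 54 members passed the threshold, where 0.404% of all genes did. DESeq2 called both, Pcdhb9 higher and Pcdhgb2 lower (adjusted p = 0.00351 and 0.00442), where it called 0.307% of genes higher and 1.38% lower. Without the libraries with markers of other brain regions the difference for Pcdhb9 was 1.07 (SE 0.17, adjusted p = 0.0282), the only member called, where 0.0851% of genes were called higher. Without the libraries with hepatocyte or pituitary markers the difference for Pcdhgb2 was -0.61 (adjusted p = 0.355). At an unadjusted p under 0.05, 8 members were higher, 7 of them beta genes, and 3 lower, beside 3.39% and 6.03% of all genes, with Pcdhb3 (1.20, adjusted p = 0.243), Pcdhb14 (0.55, adjusted p = 0.365) and Pcdhb2 (1.18, adjusted p = 0.375) next by p. For the difference between treatment in old and in rTg4510 mice, 0 of 54 members passed edgeR's threshold, where 0.143% of genes did, and DESeq2 called 0, beside 0.546% of genes higher and 0% lower. Of the members, Pcdhac1 (1.46, SE 0.43, adjusted p = 0.547) was higher and Pcdhb10 (-0.54, SE 0.21, adjusted p = 0.9999) lower at an unadjusted p under 0.05, beside 2.55% and 1.38% of genes.

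Females and males were compared over all groups with the group as a term. None of the 54 members passed edgeR's threshold, where 0.0521% of genes did, and DESeq2 called 0, beside 0.0586% of genes higher and 0.0716% lower. In females 0 members were higher and 4 lower at an unadjusted p under 0.05, beside 2.6% and 3.46% of genes. The difference was -0.31 (SE 0.09, adjusted p = 0.795) for Pcdhb18, -0.33 (SE 0.12, adjusted p = 0.795) for Pcdhgb6 and -0.32 (SE 0.13, adjusted p = 0.795) for Pcdhgb7. All 3 libraries with markers of other brain regions are from males. In young M4, Pcdhgb7 was at 19.3 CPM where the other young libraries were at 8.24 to 9.89 CPM, and without those libraries its difference between the sexes was -0.15.

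Levels also differed between the aging and the tauopathy cohorts, which differ in age, source and breeding, so that these cannot be told apart. Pcdhb9 was at 13.2 to 30.9 CPM over the 12 aging libraries and at 8.05 to 12.1 CPM over the 11 tauopathy libraries. Pcdhgb8 was at 1.88 to 4.002 CPM over the aging and at 5.29 to 8.32 CPM over the tauopathy libraries. These were the 2 members whose cohorts did not overlap, 1 higher and 1 lower in the aging libraries, beside 0.729% and 0.527% of all genes, and they are given as a description without a test. Hepatocyte markers separated the cohorts too, with sums of 3.25 to 688.2 CPM over the aging and 0.702 to 1.89 CPM over the tauopathy libraries, and pituitary markers summed to 1.46 to 24.3 and 5.79 to 1807 CPM. Up to 4 of the 8 hepatocyte markers, Alb among them, were at 0 in single tauopathy libraries, and up to 5 of the 7 pituitary markers, Prl among them, in single aging libraries. Across the 23 libraries Pcdhb9 had Pearson and Spearman correlations of 0.47 and 0.69 with hepatocyte markers, and Pcdhgb8 of 0.70 and 0.67 with pituitary markers, and their part in these levels was not tested. The young libraries of Pcdhb9 thus lay between the tauopathy cohort and the old mice. Other genes at the start of the beta cluster, Pcdhb2 to Pcdhb8, did not have this order. Their means were higher in LM than in young mice, such as 6.89 and 3.46 CPM for Pcdhb2 and 11.8 and 6.78 CPM for Pcdhb3.

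Members of the beta cluster varied together across libraries more than those of the other clusters. After group means were removed, the median Pearson correlation over pairs of members was 0.31 in the beta, 0.15 in the alpha and 0.10 in the gamma cluster, over 23 libraries that share depth and locus. Young M4 had the highest beta sum of its group (196.7 CPM) and LM F3 the lowest of its group (125.9 CPM). Both are part of the beta value, and no value without them was computed. The highest pairs were neighbours or near neighbours, Pcdhb16 with Pcdhb17 (0.82), Pcdhb3 with Pcdhb5 (0.81), Pcdhb10 with Pcdhb11 (0.79), Pcdhgb6 with Pcdhgb7 (0.76) and Pcdhb2 with Pcdhb3 (0.76). Pairs that lie further apart came next, Pcdhb7 with Pcdhb16 (0.73), Pcdhb7 with Pcdhb13 (0.72) and Pcdhga7 with Pcdhgc4 (0.71). Pairs across clusters followed closely, Pcdhb4 with Pcdhgb1 (0.71) and Pcdhb8 with Pcdhgb6 (0.70). Opposite variation was found for Pcdhac2 with Pcdhgb7 (-0.79), Pcdhgc4 with Pcdhgc5 (-0.71) and Pcdhac2 with Pcdhgb6 (-0.69). Young M4, low for Pcdhac2 and high for Pcdhgb7 and Pcdhgb6, is part of these values.

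Genes that act with the clustered protocadherins were also examined, and none of them passed edgeR's threshold in any of the 10 comparisons. The non-clustered protocadherins, relatives encoded outside the clusters, were negative in old relative to young mice for 12 of 12 genes, with a median log2 fold change of -0.38 against -0.02 over all genes. Young M4, the library with olfactory bulb markers, is part of the values with age for these and the following genes. No value without it was computed for them. Pcdh12, a protocadherin of blood vessels that lies near the clusters, had the smallest p (-1.08, SE 0.35, adjusted p = 0.384), and Pcdh17 and Pcdh20 were at -0.23 and -0.77. Between rTg4510 and LM mice their median was -0.07, with Pcdh19 at -0.56 (SE 0.18, adjusted p = 0.214) and Pcdh17 at -0.23 (adjusted p = 0.316). Between treated and untreated rTg4510 mice 10 of 12 were positive, with a median of 0.25, and none of them had an unadjusted p under 0.05.

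Of the genes for promoter choice and cohesin, 10 of 11 were tested, with a median of -0.18 in old relative to young mice (9 of 10 negative) and of -0.03 in rTg4510 relative to LM mice. Pds5a, a cohesin regulator, was at -0.18 (SE 0.09, adjusted p = 0.525), Nipbl, the cohesin loader, at -0.25 (adjusted p = 0.615) and Rad21, a cohesin subunit, at 0.21 (adjusted p = 0.631). The 15 genes for chromatin and DNA methylation had medians of -0.24 with age and -0.06 in rTg4510 mice. Among them were Ehmt1, a histone methyltransferase (-0.43, SE 0.16, adjusted p = 0.431), Tet3, which oxidizes methylated cytosine (-0.53, adjusted p = 0.499), and Setdb1, a methyltransferase known to hold the chromatin of these clusters together in mouse neurons (-0.24, adjusted p = 0.519). With both old groups together 6 of the 15 were lower at an unadjusted p under 0.05, beside 8.33% of all genes, Setdb1 among them (-0.27, SE 0.09, adjusted p = 0.204).

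Signalling and adhesion partners (21 genes) had medians of -0.14 with age and -0.05 in rTg4510 mice, where Prkca, a kinase, was at -0.74 (adjusted p = 0.459) and Fyn, a tyrosine kinase, at -0.50 (adjusted p = 0.512) in old mice, and Wasf1, a subunit of the WAVE complex that drives actin branching, at -0.50 (adjusted p = 0.301) in rTg4510 mice. The 7 proteases that cut protocadherins at the membrane had medians of 0.04 and 0.09, and Ncstn, a subunit of gamma-secretase, was at 0.29 (SE 0.08, adjusted p = 0.167) in rTg4510 mice. For Ncstn the difference between the changes with age and with rTg4510 was -0.41 (SE 0.10, adjusted p = 0.0943).

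Genes beside the clusters did not share the pattern of the beta genes. Of 35 other genes within 500 kb of the clusters or between them, 27 were tested, and their median was -0.02 in old relative to young mice, as over all genes. Rell2 was at 0.55 (SE 0.15, adjusted p = 0.355) and Dnd1 at -0.71 (SE 0.30, adjusted p = 0.481). In rTg4510 relative to LM mice the median was -0.04, and Cd14, a receptor of innate immunity, was at 1.06 (SE 0.29, adjusted p = 0.157).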

How the data were processed

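Counts were deposited by the authors as whole numbers per gene symbol, without normalization, from poly(A)-selected, paired-end reads that fastp trimmed and STAR placed on mm10. The counting program, its strand setting and all versions were not given in the sources used here. All 24 columns were mapped to samples by title (columns not used: 0), and 23 distinct libraries were analysed. The members and gene lists were chosen with earlier results of these data known.

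Each pair of groups was fitted with edgeR 4.0.16 (quasi-likelihood, robust, two-sided) in R 4.3.3 after TMM normalization, keeping genes whose normalized counts averaged 10 or more, with Benjamini-Hochberg adjustment over all genes and a threshold of 0.05. DESeq2 1.42.0 was the alternative tool. Other alternatives were DESeq2 size factors, no filter or a minimum of 50, a term for sex, joint fits of the 3 groups of a cohort, a replicate block, each library left out, the 3 libraries holding signal of further brain regions left out together, the libraries with hepatocyte or pituitary markers left out (chosen after seeing the data), both identical columns kept, plain library sizes for cluster sums and all exonic bases for levels per length. Standard errors came from the F statistic. Tables and figures used Python 3.11.15, pandas 2.3.3, numpy 2.4.6, scipy 1.17.1 and matplotlib 3.10.9. Exonic lengths came from GENCODE M21 and positions from RefSeq, both on GRCm38. Marker levels are means of log2(CPM + 0.5). The fits were tested on simulated counts.

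Named members are those past the threshold in any comparison, the 5 with the smallest p in each comparison, the C-type genes and the 3 highest and 3 lowest by mean CPM in each cluster. Of the other lists, up to 3 genes with the smallest p could be named. Other members were chosen after their values were seen. Promoter sequences of the clusters were not analysed here.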

Additional observations from a re-analysis of the deposited data

Results flagged for a closer look

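Values of named members and of cluster sums were examined for single libraries that stand apart from the other 3 of their group, in 200 sets of 4 libraries. A library stood apart where its gap to the nearest one exceeded the 95% critical value of Dixon's ratio, which chance gives in about 1 in 20 sets, and 9 were found, so that their number is no result. In old mice, F2 was at 5.052 CPM for Pcdha5 (others 3.321 to 3.611), M1 was at 19.54 CPM for Pcdhgb6 (others 15.63 to 15.78) and F3 was at 65.28 CPM for Pcdhgc5 (others 89.54 to 91.49). In young mice, M4 was at 5.861 CPM for Pcdhb6 (others 1.677 to 1.932) and at 19.32 CPM for Pcdhgb7 (others 8.245 to 9.893). Young M4 and old M1 are libraries with markers of other brain regions. In LM mice, F3 was at 1.951 CPM for Pcdhb4 (others 5.17 to 5.692) and at 59.4496 CPM for the alpha cluster sum (others 64.021 to 64.484). In treated mice, Old-Nano M5 was at 9.771 CPM for Pcdhb14 (others 12.15 to 12.51) and rTg4510-Nano M3 was at 6.717 CPM for Pcdhb18 (others 5.313 to 5.463).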

How the results depend on the processing

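Counts of called members depended mainly on the tool. DESeq2 called 5 members between old and young, 6 between Old-Nano and young, 1 between rTg4510 and LM mice, 10 with both old groups against young and 2 for the difference between age and rTg4510, where edgeR called 0, 0, 0, 1 and 0. Shares of all genes called are given with each of these comparisons above. Without the libraries with markers of other brain regions, edgeR called 2 with both old groups and 1 for the difference between age and rTg4510. Without the 5 libraries with hepatocyte or pituitary markers, an alternative chosen after seeing the data, it called 0 in every comparison, also with both old groups (Pcdhb9 0.99, adjusted p = 0.0769). With both identical rTg4510 columns kept, it called 1 between rTg4510 and LM mice (Pcdhgb2, adjusted p = 0.0417). In that fit 315 of 15150 genes were called higher and 89 lower. With single libraries left out, the count was 0 to 1 with both old groups and 0 to 0 in each pair of groups. Of the values of single named members, 345 kept their side of the threshold in the other alternatives, 19 gained a call and 1 lost it (Pcdhb9, as given), and with single libraries left out 283 kept it and 7 lost it, all 7 for Pcdhb9 with both old groups. No direction of a named member reversed in any of them. With all exonic bases, the median level per kb was 0.516 in the alpha and 2.34 in the gamma cluster. Replicate numbers were not taken to pair the samples, since the deviations of same-numbered libraries correlated at -0.32 to 0.41 where groups shared 2 numbers. For F2, the 1 number that Old-Nano mice share with old and young mice, the correlations were 0.49 and 0.50. The replicate block called 0 members in the 4 comparisons where it could be fitted, and the value of Pcdhgb2 between rTg4510-Nano and LM mice was 0.12 with it. No paired analysis was possible for Old-Nano mice because they share only 1 number with old or young mice. The promoter description was not run. At 3 or 4 libraries per group, members with few counts carry large errors, such as an SE of 0.64 on the log2 scale for Pcdha8 between rTg4510-Nano and rTg4510 mice.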
